A study of Mus musculus with 47 samples.

Results

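The nuclear receptors described here are 10 members of that family measured in the liver, among them sensors of xenobiotics, bile acids, oxysterols and fatty acids. They were chosen by name, as the gene probes that the array files assign to *Nr1i2*, *Nr1i3*, *Nr1h4*, *Nr0b2*, *Nr1h3*, *Nr5a2*, *Hnf4a*, *Rxra*, *Ppara* and *Pparg*. They have 17 probes, of which 16 were tested, and all 10 genes are among the 21877 genes tested. Hepatic mRNA was measured on 1-color arrays in 47 mice, 1 array per mouse. The 8 groups combined sex, *Pxr* genotype (Pxr+/+ or Pxr-/- littermates on a C57Bl/6J background) and treatment, either none (CTRL) or antibiotics in the drinking water (ATB: 1 g/L ampicillin, 1 g/L neomycin and 0.5 g/L vancomycin for 2 weeks). The mice were 6 months old when treatment began and all were killed at ZT6, that is 6 h after lights on. Each group held 6 mice, except the Pxr-/- CTRL males, with 5. The mice of a group were housed in 2 cages that the labels do not assign to mice, and p-values therefore measure the spread between mice that may share a cage. The deletion was carried by the whole animal and not by hepatocytes alone, and the deleted part of the gene is not given in the sources used here.

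Nuclear receptors bind small lipophilic ligands and switch the transcription of their target genes on or off. PXR (*Nr1i2*) and CAR (*Nr1i3*) are the xenobiotic sensors that govern drug-metabolising cytochromes P450. FXR (*Nr1h4*) senses bile acids and induces SHP (*Nr0b2*), a receptor without a DNA-binding domain that represses bile acid synthesis by acting on LRH-1 (*Nr5a2*) and HNF4A. LXRα (*Nr1h3*) senses oxysterols, PPARα (*Ppara*) and PPARγ (*Pparg*) sense fatty acids, and RXRα (*Rxra*) is the obligate partner of most of them. HNF4A (*Hnf4a*) maintains the identity of the hepatocyte.

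The results turn mainly on the probes of *Nr1i3* and on the only probe of *Nr1i2*. Each probe has 60 bases, and the first 30, as written in the array files from 5′ to 3′, identify what was measured. No part is in capitals, because no motif is at issue.
Nr1i2, chr16:38248745-38248804 (mm9, minus strand): gttacagcacgaactcagatgtagatcccg
Nr1i3 brighter probe, chr1:173147776-173147835 (mm9, plus strand): aagagaagagatagatcagctacaagagga
Nr1i3 dimmer probe, chr1:173144301-173144529 (mm9, plus strand): acaggagaccatgacagctatgctaacact
The coordinates of the dimmer *Nr1i3* probe span 229 bases, more than its own length. The *Nr1i2* probe starts at base 2157 of its transcript record, and it may lie outside the deletion, so its signal does not check the genotype.

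Signals are given as log2 of the median spot intensity after removal of the wash batch effect and normalisation with CrossNorm. Each gene is represented by the tested probe with the highest mean signal. Calls required both an adjusted p in limma that did not exceed 0.05 and a change of more than 1.2-fold. CrossNorm left a shift of whole arrays between the sexes: over all genes the median difference of males less females was -0.20 in Pxr+/+ CTRL, -0.13 in Pxr-/- CTRL, -0.04 in Pxr+/+ ATB and -0.17 in Pxr-/- ATB mice. Between genotypes the median was -0.04, -0.12, -0.13 and 0.00 in CTRL males, CTRL females, ATB males and ATB females. Quantile normalisation of all arrays together brought the medians of both kinds between -0.01 and 0.01. Probe intensities also depend on the probe, so levels are compared between mice and not between genes. All 10 brightest probes were well above background on all 47 arrays and none was saturated, whereas the second *Pparg* probe was above background on 0 arrays and was not tested. The 75th percentile of the gene signals ranged from 306 to 492.5 over the arrays, which were washed in 3 batches that each held all 8 groups. In whole liver, fewer cells of a type and less RNA per cell cannot be told apart. Of 7 hepatocyte markers tested, 0 were called for genotype or for antibiotics and 1, 1, 0 and 1 were lower in males in the 4 settings (the fibrinogen gene *Fgb* in each case, -0.31 to -0.33), and the mean of their log2 signals lay between 17.12 and 17.52 in all mice.

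*Nr1i3*, which encodes CAR, was the only receptor whose brightest probe was called between the sexes in every setting. It was higher in females in every combination of genotype and treatment, and among the brightest probes of the receptors this was the only call that held under both normalisations. In Pxr+/+ CTRL mice its lowest, median and highest signals were 10.68, 10.88 and 11.09 in males and 11.14, 11.34 and 11.79 in females. Every male lay below every female, and the difference was -0.54 (standard error 0.14, adjusted p = 0.00263), that is 1.45-fold. In Pxr+/+ ATB mice the signals were 10.92, 11.02 and 11.29 in males and 11.36, 11.71 and 11.84 in females. The groups again did not overlap, with a difference of -0.59 (standard error 0.14, adjusted p = 0.0023).

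In Pxr-/- CTRL males the 5 *Nr1i3* signals were 10.23, 10.48, 10.50, 10.59 and 10.61. The females of that genotype had a lowest signal of 10.38, a median of 11.23 and a highest of 11.57. The lowest female lay within the male range, and the other 5 females lay above every male. The difference was -0.62 (standard error 0.14, adjusted p = 0.00189). After antibiotics the Pxr-/- groups stood far apart, at 10.24, 10.53 and 10.90 in males and 11.42, 11.56 and 11.88 in females. This was the widest of the 4 sex differences in size, at -1.04 (standard error 0.14, adjusted p = 1.46e-07), or 2.05-fold. Under quantile normalisation the 4 differences were -0.32, -0.48, -0.56 and -0.84 in the order given here for Pxr+/+ CTRL, Pxr-/- CTRL, Pxr+/+ ATB and Pxr-/- ATB mice, all called (adjusted p = 0.0493, 0.00439, 0.000431 and 3.22e-07). In each of the 3 wash batches *Nr1i3* was lower in males in all 4 settings, from -0.41 to -1.25. Wash batch 3 held a single mouse of each group, and the -1.25 of the Pxr-/- ATB mice comes from it.

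**Figure D1:**
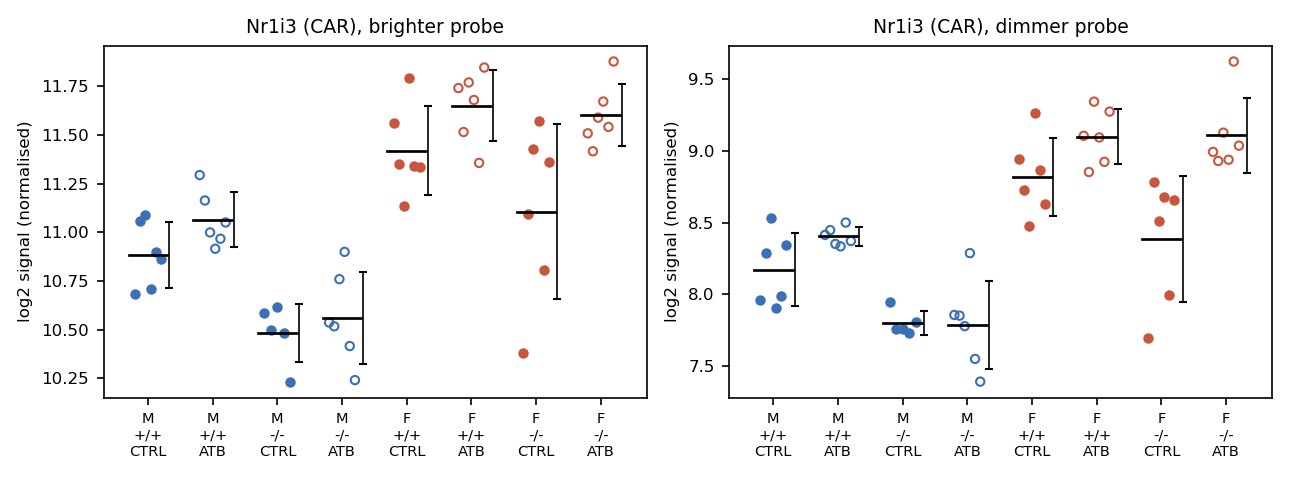
Normalised log2 signal of both *Nr1i3* probes (vertical axes) in each mouse, by sex (M blue, F red), *Pxr* genotype (+/+ or -/-) and treatment (CTRL filled, ATB open). Horizontal lines are group means and vertical bars the SD over 5 or 6 mice; in Pxr+/+ CTRL, Pxr+/+ ATB and Pxr-/- ATB mice, females lie above males on the left, and in Pxr-/- CTRL mice the lowest female (10.38) lies among the males.

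The dimmer *Nr1i3* probe, which the array files assign to another transcript record of the gene, gave sex differences of -0.65, -0.59, -0.70 and -1.32 in the same 4 settings, with an adjusted p = 0.00117, 0.00844, 0.00104 and 5.29e-09. Under quantile normalisation it was called in the ATB mice of both genotypes (-0.63 and -1.11) and not in the CTRL mice (-0.38 and -0.41, adjusted p = 0.0722 and 0.074). The order of the group means of the brighter probe, from high to low, was female Pxr+/+ ATB (11.65), female Pxr-/- ATB (11.60), female Pxr+/+ CTRL (11.42), female Pxr-/- CTRL (11.11), male Pxr+/+ ATB (11.06), male Pxr+/+ CTRL (10.88), male Pxr-/- ATB (10.56) and male Pxr-/- CTRL (10.48). All neighbours in this order overlapped in range, and Pxr-/- CTRL females had the widest spread (SD 0.45, against 0.14 to 0.24 in the other groups). The sex difference in Pxr+/+ CTRL mice less that in Pxr-/- CTRL mice was 0.09 (95% confidence interval -0.31 to 0.49, adjusted p = 0.981), and less that in Pxr+/+ ATB mice it was 0.05 (-0.34 to 0.44, adjusted p = 0.903). A further pair of contrasts, chosen after the values were seen, set the wide difference of the Pxr-/- ATB mice against that of the Pxr+/+ ATB mice (0.45, standard error 0.19, adjusted p = 0.475) and against that of the Pxr-/- CTRL mice (0.41, standard error 0.20, adjusted p = 0.904), and neither was called. Over all genes these contrasts called 0.0457% and 0.00457%.

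The sex comparisons called many genes, and the other receptors have to be read against that background. Genes called lower in males made up 30.2% of all genes in Pxr+/+ CTRL, 14% in Pxr-/- CTRL, 8.97% in Pxr+/+ ATB and 23.3% in Pxr-/- ATB mice. Of the 10 receptors, 2, 2, 1 and 4 were called lower in males in these settings and 0 higher. In the 4 settings 2.17%, 2.42%, 3.45% and 2.53% of all genes were called higher in males. Under quantile normalisation 8.37%, 6.26%, 8.26% and 6.35% of genes were called lower in males, and of the receptors only *Nr1i3* was, in each setting. The median difference over the receptors was -0.17, -0.29, -0.07 and -0.28, beside the medians of all genes given above.

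*Nr1h3* (LXRα) was called in Pxr+/+ CTRL mice, with signals of 13.03, 13.12 and 13.19 (lowest, median and highest) in males and 13.29, 13.56 and 13.71 in females. These groups did not overlap, and the difference was -0.43 (standard error 0.10, adjusted p = 0.000848). Under quantile normalisation the difference was -0.24 with an adjusted p = 0.00649, so that the call was lost there to the fold change limit alone. With the processed signal less the 75th percentile, *Nr1h3* differed by -0.12 in these mice and missed both limits (adjusted p = 0.171). Its second probe gave -0.36 (adjusted p = 0.00037). In the other settings *Nr1h3* was -0.23, -0.12 and -0.25 (adjusted p = 0.113, 0.489 and 0.0511 in Pxr-/- CTRL, Pxr+/+ ATB and Pxr-/- ATB mice), and the difference between the Pxr+/+ CTRL and Pxr+/+ ATB effects was not called (adjusted p = 0.347). Macrophages also express LXRα, and of 12 macrophage markers 11 were called lower in Pxr+/+ CTRL males than females, with a median difference of -1.03, and 9 with a median of -0.79 after quantile normalisation. The mean log2 signal of these markers lay between 9.96 and 10.44 in those males and between 10.93 and 11.81 in those females, and their part in the *Nr1h3* difference was not tested.

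Markers of T and NK cells moved with sex too, beside *Nr1i3*. Of 8 T and NK cell markers 7, 6, 7 and 7 were called lower in males in Pxr+/+ CTRL, Pxr-/- CTRL, Pxr+/+ ATB and Pxr-/- ATB mice, with a median of -1.03, -0.82, -0.91 and -0.73. After quantile normalisation 7, 5, 7 and 5 were. Their mean log2 signal ranged from 6.05 to 6.98 in males and from 6.80 to 7.79 in females. Of 3 B cell markers, 1, 0, 0 and 0 were called lower in males in the same settings. Of 8 stellate cell markers 6, 1, 1 and 5 were, and of 8 endothelial markers 5, 2, 1 and 1. After quantile normalisation the counts were 0 in each setting, then 2, 0, 2 and 2, and 3, 0, 1 and 0. The part of these cell types in the *Nr1i3* difference was not tested. Over the 47 mice, the quantile-normalised signals of *Gimap3* (Pearson r = 0.861) and *Cxcr3* (0.849), both known from T cells, followed *Nr1i3* most closely. Next came *Lect2* (0.834), which encodes a protein secreted by hepatocytes. Group means were not removed, so a shared sex difference can raise these values.

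The remaining calls between the sexes were lost under quantile normalisation. *Hnf4a* was called in Pxr-/- CTRL mice, where the 5 males had 14.90, 15.12, 15.28, 15.47 and 15.50 and the females ranged from 15.37 to 15.80 with a median of 15.70. The ranges overlapped, and the difference was -0.41 (standard error 0.14, adjusted p = 0.0455), against -0.26 (adjusted p = 0.183) after quantile normalisation. Leaving out any of 15 of the 47 mice lost the call, with Pxr-/- CTRL male replicate 6 the furthest (-0.30, adjusted p = 0.211). *Nr1h4*, *Nr5a2* and *Ppara* were called in Pxr-/- ATB mice. *Nr1h4* (FXR) had 13.07, 13.30 and 13.61 in males and 13.57, 13.71 and 13.76 in females, with a difference of -0.37 (adjusted p = 0.0187) and -0.20 (adjusted p = 0.23) after quantile normalisation. Without male replicate 2 or 6 the *Nr1h4* difference was -0.32 in either case and not called (adjusted p = 0.0586 and 0.0566).

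*Nr5a2* (LRH-1) had 11.45, 11.71 and 12.01 in Pxr-/- ATB males and 11.79, 12.09 and 12.18 in females, with a difference of -0.32 (adjusted p = 0.0119) and -0.13 (adjusted p = 0.45) after quantile normalisation. *Ppara* had 13.71, 13.84 and 14.11 in those males and 13.98, 14.36 and 14.77 in those females. Its difference of -0.49 (adjusted p = 0.019) became -0.32 (adjusted p = 0.13). Without male replicate 5 the *Nr5a2* difference was -0.25 and missed the fold change limit (adjusted p = 0.0438), and without female replicate 4 or 6 that of *Ppara* was -0.40 or -0.43 (adjusted p = 0.0778 and 0.0606). The ranges of all 3 receptors overlapped between the sexes. The second *Nr1h4* and *Ppara* probes, both dimmer, were called in Pxr-/- ATB mice under both normalisations (-0.63 and -0.65, or -0.42 and -0.47 after quantile normalisation). In Pxr+/+ CTRL mice the second *Nr1h4* probe had a CrossNorm mean of 9.12 in males (8.86 to 9.63) and 9.62 in females (9.46 to 9.92). By brightest probe, the sign of 4 receptors in Pxr+/+ CTRL mice turned with the normalisation, among them *Nr1h4* (-0.16 to 0.03) and *Nr5a2* (-0.11 to 0.11). *Nr0b2* and *Pparg* were the only receptors above 0 there under both, at 0.36 and 0.21 (adjusted p = 0.201 and 0.364), or 0.61 and 0.45 after quantile normalisation (adjusted p = 0.0701 and 0.057).

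**Figure D2:**
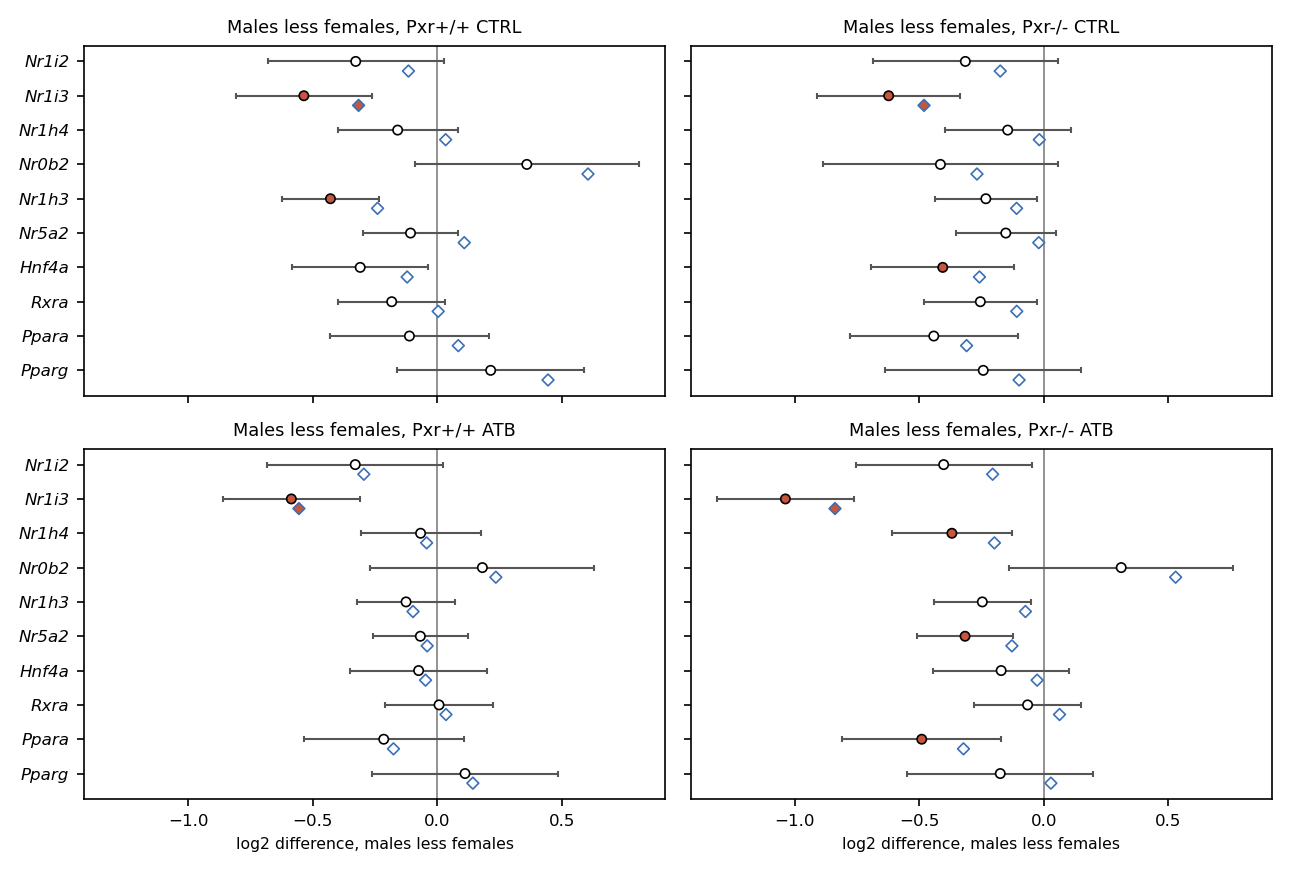
Difference of males less females on the log2 scale (horizontal axes) for the 10 receptors in each combination of genotype and treatment. Circles with bars are CrossNorm values with 95% confidence intervals, diamonds are quantile-normalised values, and red marks a call; *Nr1i3* is red under both in all 4 panels, and *Nr1h3*, *Hnf4a*, *Nr1h4*, *Nr5a2* and *Ppara* are red for CrossNorm alone.

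Under PXR loss no receptor passed the threshold by its brightest probe. Of the 10 receptors 0 were called in CTRL males, where 0.187% of genes were called, 0 in CTRL females (3.14%), 0 in ATB males (0.955%) and 0 in ATB females (0.21%). Before adjustment, the p of limma was under 0.05 for 1, 3, 3 and 1 of the 10 receptors. Among all 21877 genes it was under 0.05 for 1135, 4628, 5013 and 1147. The receptors' median was -0.14, 0.05, -0.14 and 0.01 against -0.04, -0.12, -0.13 and 0.00 for all genes. The 95% confidence intervals of the 10 receptors in CTRL males lay between -0.73 and 0.41.

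The point estimate for *Nr1i2* itself lay below 0 in all 4 settings, yet its probe gave a clear signal in every Pxr-/- mouse. In CTRL males the Pxr-/- signals were 11.07, 11.24, 11.36, 11.44 and 11.74, and the Pxr+/+ signals were 11.24, 11.68 and 11.98 (lowest, median and highest). In CTRL females they were 11.38, 11.71 and 11.89 in Pxr-/- and 11.46, 12.03 and 12.29 in Pxr+/+ mice. In ATB males they were 10.37, 11.16 and 11.46 in Pxr-/- and 11.43, 11.59 and 12.09 in Pxr+/+ mice, and in ATB females 10.98, 11.58 and 11.82 against 11.56, 11.99 and 12.41. The ranges overlapped in every setting, least of all in ATB males. The differences were -0.28, -0.29, -0.57 and -0.50 (standard error 0.18 in each), with an adjusted p = 0.998, 0.336, 0.0846 and 0.723. After quantile normalisation they were -0.23, -0.17, -0.40 and -0.49 (adjusted p = 0.908, 0.708, 0.388 and 0.48). Without Pxr-/- ATB male replicate 4, the ATB male difference was -0.66 and was called (adjusted p = 0.0495).

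Known PXR targets are given beside it. They were chosen with earlier results of these mice known, so their separation is a description and not an independent check of the genotype. *Cyp2c55*, a cytochrome P450, had a mean of 10.49 ± 0.06 (SD, n = 5) in Pxr-/- and 8.13 ± 0.33 (SD, n = 6) in Pxr+/+ CTRL males, and it ranged from 9.13 to 10.68 against 6.43 to 8.18 in CTRL females. After antibiotics *Cyp2c55* ranged from 10.06 to 10.71 against 6.78 to 7.47 in males and from 9.84 to 10.77 against 6.23 to 7.84 in females, so that no Pxr-/- mouse lay within the range of its Pxr+/+ group. *Slco1a4*, a hepatic uptake transporter, separated the genotypes in males, at 6.65 to 7.80 against 9.74 to 10.59 in CTRL males and a mean of 8.08 ± 0.42 against 10.29 ± 0.22 (SD, n = 6 each) in ATB males. It did not do so in females, where the difference was -0.50 in CTRL and -0.05 in ATB mice (adjusted p = 0.152 and 1) and the ranges overlapped.

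**Figure D3:**
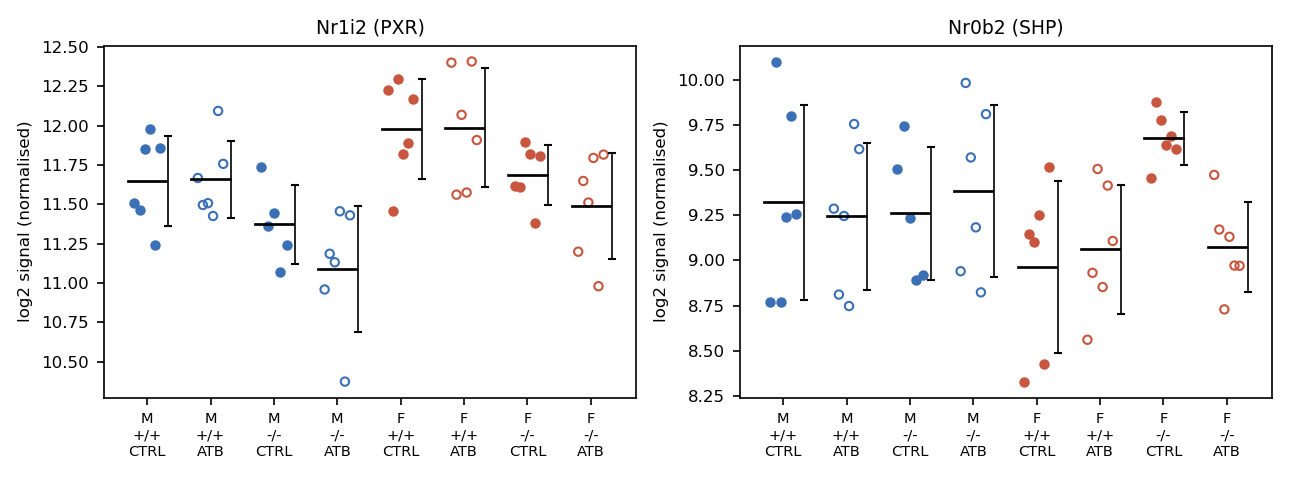
Normalised log2 signal of *Nr1i2* (left) and *Nr0b2* (right) in each mouse, by sex (M blue, F red), *Pxr* genotype (+/+ or -/-) and treatment (CTRL filled, ATB open), with group means (lines) and SD (bars, 5 or 6 mice). *Nr1i2* ranges of Pxr-/- and Pxr+/+ mice overlap in every setting, and *Nr0b2* is higher on average in Pxr-/- CTRL females (9.68) than in Pxr+/+ CTRL females (8.96).

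The brighter *Nr1i3* probe did not overlap between Pxr-/- and Pxr+/+ males, with the lower signals in Pxr-/- males, but it missed the threshold. In CTRL males the 5 Pxr-/- signals given above, up to 10.61, lay below the lowest Pxr+/+ signal of 10.68. The difference was -0.40 (standard error 0.14, adjusted p = 0.767). In ATB males the highest Pxr-/- signal of 10.90 lay just below the lowest Pxr+/+ signal of 10.92. The difference was -0.50 (standard error 0.14, adjusted p = 0.0565). Its wash batches gave -0.55, -0.37 and -0.63, the last from a single mouse of each group. The dimmer probe gave -0.62 in ATB males and was called (adjusted p = 0.0335), where 1.27% of genes had at least 1 probe called, but not after quantile normalisation (-0.47, adjusted p = 0.182). With the slide in place of the wash batch in the model, the brighter probe was called as well (-0.50, adjusted p = 0.0453), and so it was without Pxr-/- ATB male replicate 4 (-0.59, adjusted p = 0.0258) or Pxr-/- CTRL female replicate 1 (-0.50, adjusted p = 0.024). In females the difference was -0.31 in CTRL mice (adjusted p = 0.182), or -0.19 after quantile normalisation (adjusted p = 0.46), and -0.05 in ATB mice (95% confidence interval -0.32 to 0.22).

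*Nr0b2* (SHP) was the receptor with the largest difference between genotypes in CTRL females. Its signals were 9.45, 9.66 and 9.88 in Pxr-/- and 8.33, 9.12 and 9.52 in Pxr+/+ mice. The ranges met only at their edges, and the difference of 0.71 (standard error 0.22) missed the threshold (adjusted p = 0.064), as did the value of 0.86 after quantile normalisation (adjusted p = 0.0584). Without Pxr+/+ CTRL female replicate 6 it was 0.84 and was called (adjusted p = 0.0344). In CTRL males the difference was -0.06 (95% confidence interval -0.53 to 0.41). The male effect less the female effect was -0.78 (standard error 0.32, adjusted p = 0.973). *Cyp7a1*, the rate-limiting enzyme of bile acid synthesis and a gene that SHP represses, differed by -2.04 in CTRL females and was called (adjusted p = 0.0256). It ranged from 6.94 to 9.83 in Pxr-/- and from 9.35 to 12.78 in Pxr+/+ mice, and it was not called after quantile normalisation. Of 9 FXR targets tested in CTRL females, 0 were called higher and 2 lower (median -0.08), beside 0.21% and 2.93% of all genes. After quantile normalisation 0 were called. The part of SHP in the *Cyp7a1* value was not tested. In the same comparison 7 of 12 macrophage markers (median -0.86) and 4 of 8 endothelial markers (median -0.57) were called lower in Pxr-/- females, 3 and 2 after quantile normalisation, with a mean macrophage signal of 9.98 to 10.65 against 10.93 to 11.81 in Pxr+/+ females. Their part in the *Nr0b2* and *Cyp7a1* values was not tested.

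None of the other 7 receptors was called between genotypes. *Nr1h4* was -0.21, -0.23, -0.26 and 0.05 in CTRL males, CTRL females, ATB males and ATB females (adjusted p between 0.194 and 1). *Pparg* was -0.34, 0.12, -0.03 and 0.26, and *Ppara* was -0.21, 0.12, -0.19 and 0.08. *Nr1h3* was -0.02, -0.22, -0.13 and -0.01. *Hnf4a*, *Rxra* and *Nr5a2* lay between -0.15 and 0.14 in all 4 settings. In ATB males 9 of 10 receptors lay below 0, and quantile normalisation turned the sign of 5 of them.

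With antibiotics no receptor passed the threshold either. Of the 10 receptors 0 were called in Pxr+/+ males (1.07% of genes), 0 in Pxr-/- males (0.11%), 0 in Pxr+/+ females (0.0137%) and 0 in Pxr-/- females (0.0274%). Before adjustment the p of limma was under 0.05 for 4081, 1578, 2398 and 2502 of all 21877 genes. Among the receptors it was under 0.05 for 0, 0, 0 and 2. The 2 were *Nr1i3* and *Nr0b2* in Pxr-/- females. *Nr1i3* had signals of 10.38, 11.23 and 11.57 in CTRL and 11.42, 11.56 and 11.88 in ATB mice, with overlapping ranges. The difference was 0.49 (standard error 0.14, adjusted p = 0.109), and 0.44 after quantile normalisation (adjusted p = 0.0812). Without CTRL replicate 3 it was 0.57 and was called (adjusted p = 0.0415). The dimmer probe, at 7.70, 8.58 and 8.79 in CTRL and 8.93, 9.01 and 9.62 in ATB mice, did not overlap and gave 0.72 (adjusted p = 0.0526). *Nr0b2* had 9.45, 9.66 and 9.88 in CTRL and 8.73, 9.05 and 9.47 in ATB mice, ranges that met at their edges, with a difference of -0.60 (standard error 0.22, adjusted p = 0.263).

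In Pxr+/+ mice the antibiotic differences of *Nr1i3* were 0.18 in males and 0.23 in females (adjusted p = 0.492 and 0.546). *Nr1i2* differed by 0.01 in Pxr+/+ males and by 0.01 in Pxr+/+ females (95% confidence intervals -0.35 to 0.36 and -0.34 to 0.36). *Pparg* had -0.36 in Pxr+/+ males (95% confidence interval -0.73 to 0.02) and *Rxra* had 0.19 (-0.03 to 0.40). The second *Rxra* probe ranged from 7.46 to 7.81 after antibiotics and from 7.18 to 7.40 in CTRL males without overlap, and it was not called (0.30, adjusted p = 0.116). Differences between effects were called for 0 receptors in each of 4 contrasts, namely the PXR effect between the sexes in CTRL mice (0.0229% of genes), the antibiotic effect between genotypes in males (0.0183%) and in females (0%) and the antibiotic effect between the sexes in Pxr+/+ mice (0.0411%). The lowest adjusted p of a receptor in these contrasts was 0.347.

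**Figure D4:**
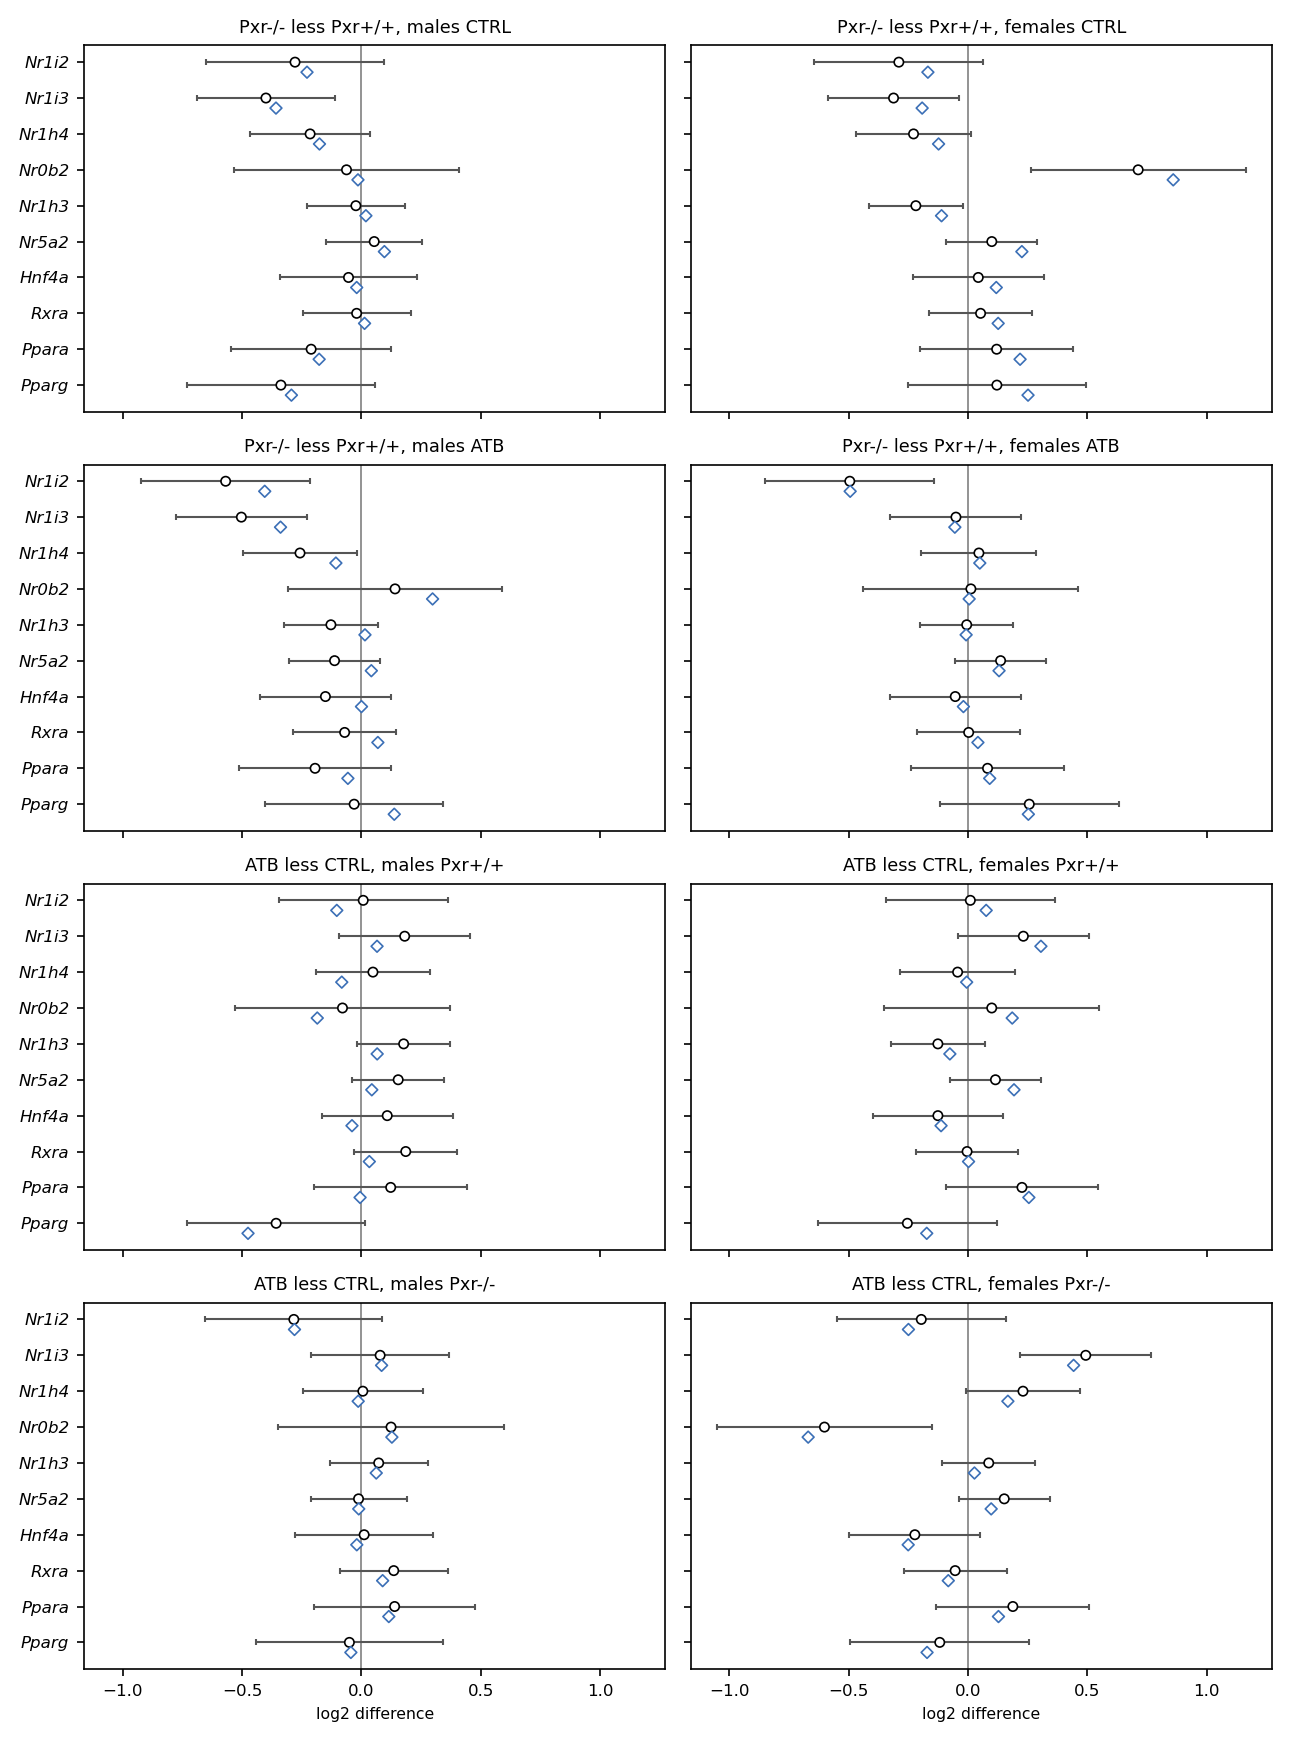
Log2 differences (horizontal axes) of the 10 receptors for Pxr-/- less Pxr+/+ (upper 4 panels) and ATB less CTRL (lower 4 panels). Circles with bars are CrossNorm values with 95% confidence intervals and diamonds are quantile-normalised values. No point is filled red, since 0 receptors were called. The bars of *Nr1i3*, *Nr0b2*, *Nr1i2*, *Nr1h3* (CTRL females, upper panels) and *Nr1h4* (ATB males, upper panels) lie off 0 in some panels.

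Across mice, some receptors varied together. *Hnf4a* and *Rxra* (Pearson r = 0.52), *Rxra* and *Ppara* (0.49) and *Hnf4a* and *Ppara* (0.43) ran in parallel over the 47 mice, and r was 0.55, 0.57 and 0.51 after group means were removed. Pairs that ran opposite within groups were *Nr0b2* and *Pparg* (-0.59, and -0.18 over all mice), *Nr1i2* and *Nr1h4* (-0.51, and -0.24 over all mice), *Ppara* and *Pparg* (-0.49 and -0.40) and *Nr1i2* and *Pparg* (-0.44 and -0.36). *Nr1i3* and *Nr1h3* had r = 0.46 over all mice and 0.18 within groups. These values describe arrays that share slides, wash batches and normalisation. With group means kept, the genes most like *Ppara* included *Eci2* (0.764), an enzyme of fatty acid oxidation, and *Slc22a5* (0.721), the carnitine transporter. Those most like *Nr1h3* were led by *Samhd1* (0.824), those most like *Nr1h4* included *Prox1* (0.701), a hepatocyte transcription factor, and those most like *Rxra* were led by *Saa4* (0.732). *Hnf4a* was followed most closely by *Top1* (0.735), *Nr1i2* by *Itgb3* (0.685), *Nr0b2* by *Epha2* (0.680), *Pparg* by *Rps6ka1* (0.679) and *Nr5a2*, among named genes, by *Kin* (0.675).

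Lists of genes known as targets of these receptors hold calls in comparisons where the receptor's own mRNA was not called. Each list is described by its counts, beside the shares of all genes given above. Of 9 PXR targets tested, 4 rose and 1 fell with PXR loss in CTRL males, 4 and 0 in CTRL females, 5 and 1 in ATB males and 4 and 0 in ATB females, with a median between 0.47 and 0.86. *Cyp2c55* was higher by 2.36, 2.43, 3.37 and 3.03 on the log2 scale and *Akr1b7*, an aldose reductase family enzyme, by 1.54, 2.05, 1.68 and 2.26. *Slco1a4* fell by 2.92 in CTRL males and 2.21 in ATB males. Antibiotics lowered 3 PXR targets in Pxr+/+ males, *Cyp3a11*, the main drug-metabolising P450 of the PXR programme (-2.04), *Cyp2c55* (-1.08) and *Ces2a*, a carboxylesterase (-0.48), and *Ces2a* in Pxr+/+ females (-0.56), while 0 were called in Pxr-/- males. The antibiotic effect differed between the genotypes in males for *Cyp3a11* (-1.84, adjusted p = 8.66e-05) and was not called for *Cyp2c55* or *Ces2a* (adjusted p = 0.835 for both). These targets were listed with earlier results of the same mice known and are not independent evidence of their direction.

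Of 7 CAR targets 6, 6, 5 and 7 were lower in males in Pxr+/+ CTRL, Pxr-/- CTRL, Pxr+/+ ATB and Pxr-/- ATB mice, as *Nr1i3* was, with a median of -0.92, -0.65, -1.01 and -0.74. After quantile normalisation 5, 5, 5 and 6 were. The CAR targets too were listed with earlier results of the same mice known and are not independent evidence of their direction. The part of CAR in these sex differences was not tested. *Cyp2b9* and *Cyp2b10*, P450s on this list, differed most. *Cyp2b9* ranged from 8.11 to 10.62 in Pxr+/+ CTRL males and from 15.45 to 15.87 in the females, a difference of -6.05. *Cyp2b10* ranged from 9.58 to 11.43 and from 14.97 to 15.52, a difference of -4.51, and its dimmer probe gave -2.56. Antibiotics lowered both in males, *Cyp2b10* by -3.11 in Pxr+/+ and -1.87 in Pxr-/- mice and *Cyp2b9* by -2.46 and -1.68. The brighter *Nr1i3* probe differed by 0.18 and 0.08 in these males and was not called. The dimmer *Nr1i3* probe had means of 8.40 (ATB) and 8.17 (CTRL) in Pxr+/+ males and of 7.78 and 7.80 in Pxr-/- males. The part of CAR in the antibiotic differences was not tested. *Gadd45b* was lower in males by -1.66 to -2.03 across the settings.

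**Figure D5:**
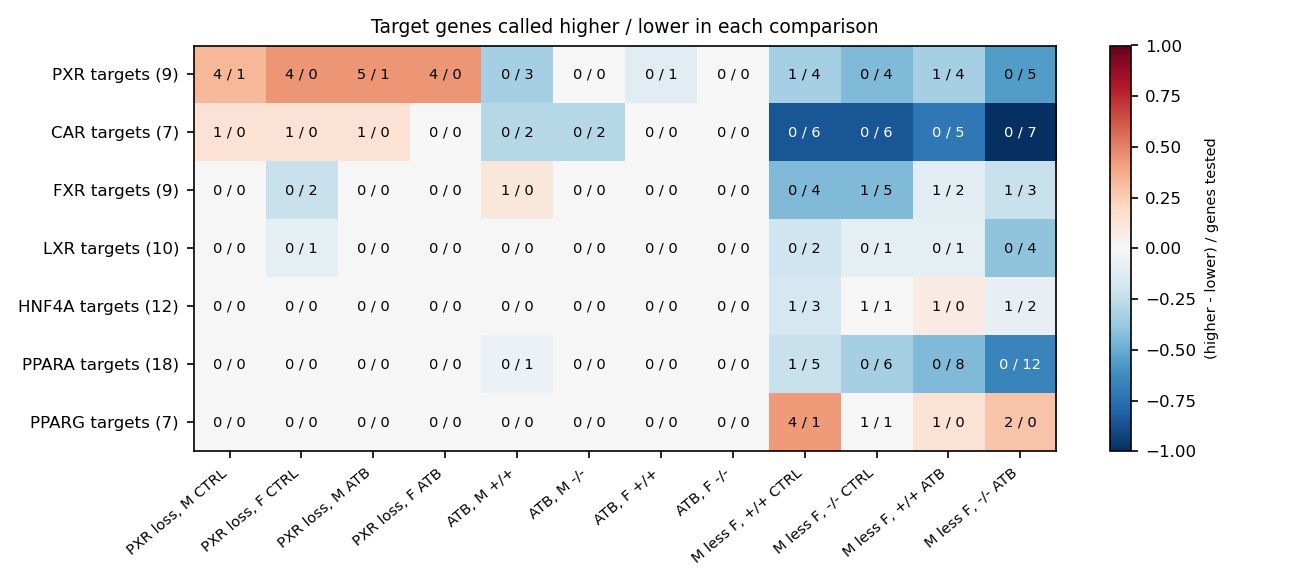
Number of target genes of each receptor called higher / lower (numbers in the cells) in the 12 comparisons (columns), with the number of genes tested in brackets and colour giving higher less lower as a share of the genes tested. CAR targets are called lower in males in all 4 sex comparisons (6, 6, 5 and 7 of 7), and PXR targets hold the most calls for PXR loss. The lists were chosen with earlier results of these mice known.

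PPARα targets, mostly enzymes of fatty acid oxidation, were called lower in males for 5, 6, 8 and 12 of 18 genes in the same 4 settings and higher for 1, 0, 0 and 0, while *Ppara* itself was called in Pxr-/- ATB mice alone. *Cyp4a14* was -1.56, -4.08, -4.79 and -4.78, and *Cyp4a10* was -1.83, -2.20 and -3.17 in the last 3 settings. In Pxr-/- ATB males *Cyp4a14* was above background in 2 of 6 mice, so its value there is uncertain. After quantile normalisation 2, 5, 9 and 9 were called lower. Of 7 PPARγ targets 4 were higher and 1 lower in Pxr+/+ CTRL males, the lipid storage genes *Cidea* (1.66, above background in 2 of 6 females), *Cidec* (1.43), *Plin4* (1.14) and *Mogat1* (1.08) against *Cd36* (-0.89). In Pxr-/- CTRL, Pxr+/+ ATB and Pxr-/- ATB mice 1, 1 and 2 were higher and 1, 0 and 0 lower. After quantile normalisation 4, 1, 1 and 3 were higher and 0, 1, 0 and 0 lower in the 4 settings. *Pparg* was 0.21 in Pxr+/+ CTRL mice and was not called.

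Of 9 FXR targets 4, 5, 2 and 3 were lower and 0, 1, 1 and 1 higher in males, with *Cyp8b1*, the sterol 12α-hydroxylase, higher in males in Pxr-/- CTRL (1.32), Pxr+/+ ATB (1.67) and Pxr-/- ATB mice (1.43) and *Slc51b*, a bile acid exporter, lower in all 4 (-1.25 to -0.71). After quantile normalisation 2 FXR targets were called lower in each setting. Of 10 LXR targets 2, 1, 1 and 4 were lower in males, among them the sterol transporter *Abcg5* (-0.42, -0.50, -0.65 and -0.98), and 1, 0, 1 and 3 after quantile normalisation. Of 12 HNF4A targets 3, 1, 0 and 2 were lower, or 1, 0, 1 and 1 after quantile normalisation, and *Ugt2b1*, a glucuronosyltransferase, was higher in males in all 4 settings under both normalisations (0.88, 1.29, 1.22 and 1.33).

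Among 32 other nuclear receptors tested, 13, 4, 8 and 12 were lower in males and 1, 1, 1 and 0 higher in the same 4 settings, with 6, 4, 8 and 4 lower after quantile normalisation. *Esr1*, the oestrogen receptor, was -2.08, -1.16, -1.72 and -1.38. *Esr1* was also the only other nuclear receptor that rose with PXR loss in CTRL males (0.73, adjusted p = 0.0224), at 9.55 to 9.87 in Pxr-/- against 8.70 to 9.29 in Pxr+/+ mice. *Rarg*, a retinoic acid receptor, fell in CTRL females (-0.67) and was not called after quantile normalisation. Of 16 coregulators 7, 1, 2 and 7 were lower in males, and 2, 1, 2 and 1 after quantile normalisation. Their leading value, -1.70 for *Crebbp*, rests on its brightest probe, since the other *Crebbp* probes gave -0.11 and -0.15 in Pxr+/+ CTRL mice (adjusted p = 0.422 and 0.249).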

How the data were processed

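The authors scanned the arrays with Agilent Feature Extraction 10.10.1.1 (submitters' processing notes), and the deposited intensity values are linear medians of each spot's pixels, without background subtraction. A deposited table of the authors' processed log2 values served as an alternative. Non-uniform spots (422 values) were left out, log2 was taken, and a probe was kept if at least 5 arrays of any group had it well above background (32979 probes). The wash batch was removed with group means kept, and CrossNorm was run over 300 random stacks of 1 array per group. The filter and the stacking are not stated by the authors and were chosen here. Models with 8 groups and the wash batch were fitted in limma 3.58.1 (R 4.3.3), and p-values were adjusted (Benjamini-Hochberg) over all probes. The pipeline was tested on simulated data. Probe coordinates are mm9, as in the array files. Named genes are the receptors, called genes of the lists and, per receptor, the genes with the highest correlation. The members and the lists were chosen with earlier results of these data known. Replicate numbers did not pair mice: the median correlation of same-numbered mice of other groups was -0.0554, against 0.00465 for other numbers.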

Additional observations from a re-analysis of the deposited data

Results flagged for a closer look

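In 3 of 80 combinations of receptor and group, a single mouse stood apart from the rest of its group by Dixon's criterion, which chance meets in about 1 of 20 groups. *Nr5a2* was highest in Pxr+/+ ATB male replicate 1, at a log2 signal of 12.15, and in Pxr-/- CTRL male replicate 4, at 11.93. *Hnf4a* was highest in Pxr+/+ CTRL male replicate 3, at 15.78. No comparison that uses these mice called *Nr5a2*, and *Hnf4a* was not called between the sexes in Pxr+/+ CTRL mice.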

How the results depend on the processing

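By brightest probe, 9 sex differences of receptors were called over the 4 settings, 0 differences for PXR loss, 0 for antibiotics and 0 between effects. The sex differences numbered 4 with quantile normalisation, with the processed signal less the 75th percentile and with normexp and quantile normalisation. They numbered 5 with the authors' processed values and 13 when any probe of a gene counted, and the other 7 alternatives gave 7 to 9. The share of all genes called for sex moved too. With quantile normalisation it was 15.4%, 12.3%, 14.6% and 13.1% in Pxr+/+ CTRL, Pxr-/- CTRL, Pxr+/+ ATB and Pxr-/- ATB mice. With CrossNorm it was 32.4%, 16.4%, 12.4% and 25.8%. For the other alternatives and the counts below the share of all genes is not given, so these counts are not results about the receptors. Under PXR loss, 1 receptor was called with the slide as a block and 1 when any probe of a gene counted (*Nr1i3* in both), and with antibiotics 1 was called in the authors' processed values (*Nr1i3* in Pxr-/- females, 0.47, adjusted p = 0.0484). Leaving out each mouse in turn gave 7 to 12 sex differences, 0 to 2 for PXR loss, 0 to 1 for antibiotics and 0 between effects. *Nr1i3* was not called between the sexes in Pxr+/+ CTRL mice with the processed signal (-0.28, adjusted p = 0.0942) or in Pxr-/- CTRL mice when only the groups compared were fitted (-0.63, adjusted p = 0.0663). With the replicate number as a block, 8 sex differences were called and that of *Hnf4a* was lost (-0.41, adjusted p = 0.0553), but the numbers do not pair mice. No difference changed sign among those called. The causes of the changes were not tested. The number of arrays limits the precision, and each receptor was well above background on all of them.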
